A study of Mus musculus with 30 samples.

Results

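The genes described here are 50 chaperone, co-chaperone and endoplasmic reticulum (ER) stress genes, read from bulk RNA-seq of mouse hippocampus. They were taken by name from a list of pathway genes, chosen with earlier results of these data known. Matched to Ensembl identifiers, they gave 50 of the 49315 genes of the count table. All 50 passed the filter on low counts that left 16486 genes for testing, and their counts lay between 43 (Hspb1) and 68697 (Hsp90ab1) per mouse. Tissue came from mice on the C57BL/6J background, 13 of them TIMP2 KO, with 6 males and 7 females, and 17 WT, with 10 males and 7 females, and littermates served as controls. Mice of the study were in general 2 to 3 or 5 to 6 months old per its methods, which attach no age to these libraries. The TIMP2 KO mice came from the Jackson Laboratory and carry a deletion of TIMP2, an inhibitor of matrix metalloproteinases, that is not limited to a cell type, a brain region or a stage of life. Each library is 1 mouse, and the labels name no treatment. The supplement of the study names the date of isolation or harvest as a batch, for which its co-expression values were adjusted. No date is in the labels, so no comparison here is adjusted for it, and its part in the differences and in the covariation was not tested.

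As a check of the labels, Timp2 itself had 158.4 ± 10.5 counts per 1000000 counts (CPM, SD, n = 13) in TIMP2 KO and 316.5 ± 39.8 CPM (n = 17) in WT hippocampi, a log2 fold change of -0.999 (edgeR quasi-likelihood test, adjusted p = 7.62e-16). The KO libraries therefore still hold reads on the Timp2 gene, and the groups differ in the direction of their labels. Counts on genes summed to between 18345517 and 41081083 per TIMP2 KO mouse and to between 19445246 and 32098386 per WT mouse. The 50 genes took between 0.96% and 1.06% of these counts in TIMP2 KO mice (median 1.00%) and between 0.919% and 1.04% in WT mice (median 0.990%), so the ranges overlap. Pan-neuronal markers summed to between 4455 and 5185 CPM over all mice, so transcripts of neurons were abundant in each library. In bulk tissue, fewer cells of a type and less RNA per cell cannot be told apart.

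Cells answer misfolded protein with programmes that depend on the compartment. In the cytosol, release of heat shock factor 1 from chaperones lets it bind heat shock elements and transcribe HSP70, HSP90, J-domain and small heat shock protein genes. In the ER, the sensors IRE1, PERK and ATF6 detect unfolded protein, and the transcription factors XBP1, ATF4 and cleaved ATF6 then raise ER chaperones, disulfide isomerases and degradation factors. Much of this control is by splicing, cleavage and translation, which gene-level counts do not show. In the brain, HSC70 and HSP90 are abundant in neurons under resting conditions, and inducible HSP70 is normally low.

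The first question was whether these genes differed between TIMP2 KO and WT hippocampi. Of the 50, 9 had a higher level in TIMP2 KO mice at an unadjusted p below 0.05, which is the study's threshold, and 0 had a lower one. Over all genes tested, 2.47% were higher and 2.56% were lower at this threshold, 5.03% in all, against 18% of the 50. The 50 were chosen with earlier results of these data known, so these shares describe the list and are no test of it. Without TIMP2 KO mouse 18 the count was 5, and without TIMP2 KO mouse 15 it was 14. After Benjamini-Hochberg adjustment over all 16486 genes, 0 of the 50 passed, and 0.0546% of all genes did (9 genes). The smallest adjusted p among the 50 was 0.827, and 0 of 50 passed with DESeq2 and with limma voom as well, which called 9 and 7 of the 50 before adjustment. The fold changes were small. Their median was 0.02 on the log2 scale, with a range of -0.02 to 0.23, against a median of 0.00 over all genes tested, and 40 of 50 were above 0, against 50.2% of all genes. The 9 genes were Bag3, Hsp90aa1, Hspa1a, Hspa1b and Dnajb1 of the cytosolic machinery, and Dnajc3, Pdia4, Herpud1 and Xbp1 of the ER stress response.

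**Figure D1:**
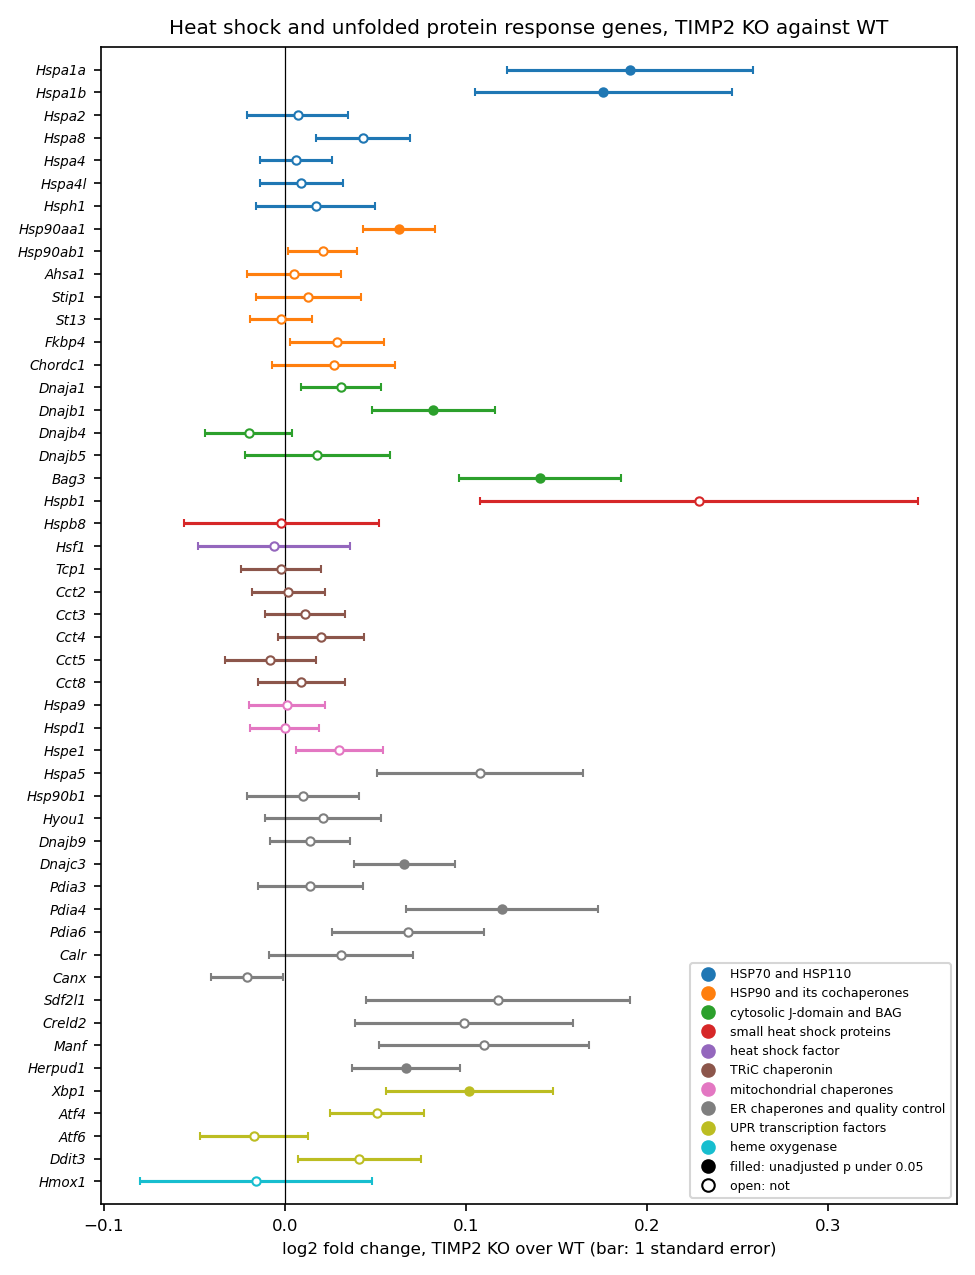
Each row is 1 of the 50 genes in order of role, with its log2 fold change of TIMP2 KO (13 mice) over WT (17 mice) on the horizontal axis and a bar of 1 standard error. Filled points mark the 9 genes with an unadjusted p under 0.05, all to the right of 0, and the TRiC and mitochondrial genes lie between -0.01 and 0.03.

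Among the 7 HSP70 and HSP110 genes, 2 were higher in TIMP2 KO mice and 5 did not pass the test. The 2 were the stress-inducible HSP70 genes, neighbours on chromosome 17. Hspa1a (chr17:34969190-34972156) ranged from 9.48 to 16.5 CPM (median 11.6) in TIMP2 KO and from 7.08 to 12.0 CPM (median 10.7) in WT mice. The groups overlapped over most of their range, with 10 of 13 TIMP2 KO mice above the WT median and TIMP2 KO mouse 18 far above all others. Its log2 fold change was 0.19 ± 0.07 (SE, p = 0.00831, adjusted p = 0.882), and its p stayed under 0.05 with each mouse left out in turn (largest p = 0.0281), but not with sex and surrogate variables or in males alone. Hspa1b (chr17:34956436-34959238) ranged from 11.9 to 23.4 CPM (median 15.2) in TIMP2 KO and from 10.9 to 17.8 CPM (median 13.5) in WT mice. The same mouse 18 had the highest value, and 11 of 13 TIMP2 KO mice were above the WT median. Hspa1b differed by 0.18 ± 0.07 on the log2 scale (p = 0.0184), and without mouse 18 the p was 0.0678. It was not called in either sex alone. Hspa1a and Hspa1b code for nearly the same protein and share long stretches of sequence, so reads may have been lost or assigned to the wrong copy, and the values of either gene are uncertain. Hspa1a exons also overlap Gm20481 on the opposite strand over 564 bases, and the strand setting of the counting is not given in the sources used here.

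The constitutive HSP70 of the cytosol, Hspa8 (HSC70), was among the most abundant of the 50, at 302 CPM per kb of exon. Its level lay between 1236 and 1403 CPM (median 1298) in TIMP2 KO and between 1123 and 1386 CPM (median 1288) in WT mice, and the groups overlapped almost entirely. The difference of 0.04 ± 0.03 on the log2 scale did not pass the test (p = 0.106). The testis-enriched Hspa2 and the HSP110 genes Hsph1, Hspa4 and Hspa4l had log2 fold changes between 0.01 and 0.02, none past the threshold.

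Of the HSP90 genes and their co-chaperones, 1 of 7 was higher. Hsp90aa1 (chr12:110690605-110702728), the inducible cytosolic HSP90, ranged from 1012 to 1132 CPM (median 1074) in TIMP2 KO and from 943 to 1098 CPM (median 1021) in WT mice. Of the 13 TIMP2 KO mice, 12 were above the WT median, although the groups overlapped between 1012 and 1098 CPM. The mean was 1071 ± 33.1 against 1025 ± 42.2 CPM, a log2 fold change of 0.06 ± 0.02 (p = 0.00399, adjusted p = 0.827). Its call held in all 12 of the other processing settings tried and with any mouse left out (largest p = 0.00998). The constitutive Hsp90ab1, the highest of the 50 per kb of exon at 564 CPM per kb, had 1706 ± 70.9 CPM in TIMP2 KO and 1681 ± 47.5 CPM in WT mice (log2 fold change 0.02, p = 0.276). The activator Ahsa1, the HSP70-HSP90 adaptor Stip1, the HSC70-interacting St13, the immunophilin Fkbp4 and Chordc1 did not pass the test, with log2 fold changes from -0.002 to 0.03.

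Among the 5 cytosolic J-domain and BAG genes, 2 were higher. Bag3 (chr7:128523616-128546981), a nucleotide exchange factor of HSP70 that directs clients to selective autophagy, had the smallest p of the 50. Its level ranged from 7.97 to 11.0 CPM (median 9.52) in TIMP2 KO and from 7.60 to 9.84 CPM (median 8.54) in WT mice. Of the TIMP2 KO mice 11 exceeded the WT median, and the highest of them lay above every WT mouse. The log2 fold change was 0.14 ± 0.045 (p = 0.0033, adjusted p = 0.827), and the largest p with 1 mouse left out was 0.00869, although in males alone it was not called. Counting error at its median of 239 counts was 6.47%, as large as its spread between mice beyond that error (5.94%). Dnajb1 (chr8:83608193-83612653), the inducible HSP40 partner of HSP70, had a range of 47.4 to 59.8 CPM (median 53.1) in TIMP2 KO and of 45.1 to 57.0 CPM (median 49.3) in WT mice. Its log2 fold change was 0.08 ± 0.03 (p = 0.0216), and the p was 0.0546 without mouse 18, which had the highest value. Its call was also lost with sex and surrogate variables, with limma voom, in either sex alone, and with the immediate early or the granule cell covariate. Dnaja1, Dnajb4 and Dnajb5, other J-domain proteins that hand clients to HSP70, had log2 fold changes of 0.03, -0.02 and 0.02 and did not pass.

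The small heat shock protein Hspb1, which binds unfolding protein without ATP, had the largest fold change of the 50 but also the widest spread between mice. It ranged from 2.65 to 6.98 CPM (median 4.36) in TIMP2 KO and from 2.24 to 5.42 CPM (median 3.54) in WT mice, and mouse 18 was again the highest. The log2 fold change of 0.23 ± 0.12 missed the threshold (p = 0.0659). Hspb8, which works with Bag3, had 13.6 ± 1.29 CPM in TIMP2 KO and 13.7 ± 1.58 CPM in WT mice. The transcript of Hsf1, whose protein is mainly controlled after translation, ranged from 20.9 to 29.1 CPM (median 25.2) in TIMP2 KO and from 22.6 to 29.4 CPM (median 24.8) in WT mice, with nearly full overlap (log2 fold change -0.01 ± 0.04, p = 0.893).

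**Figure D2:**
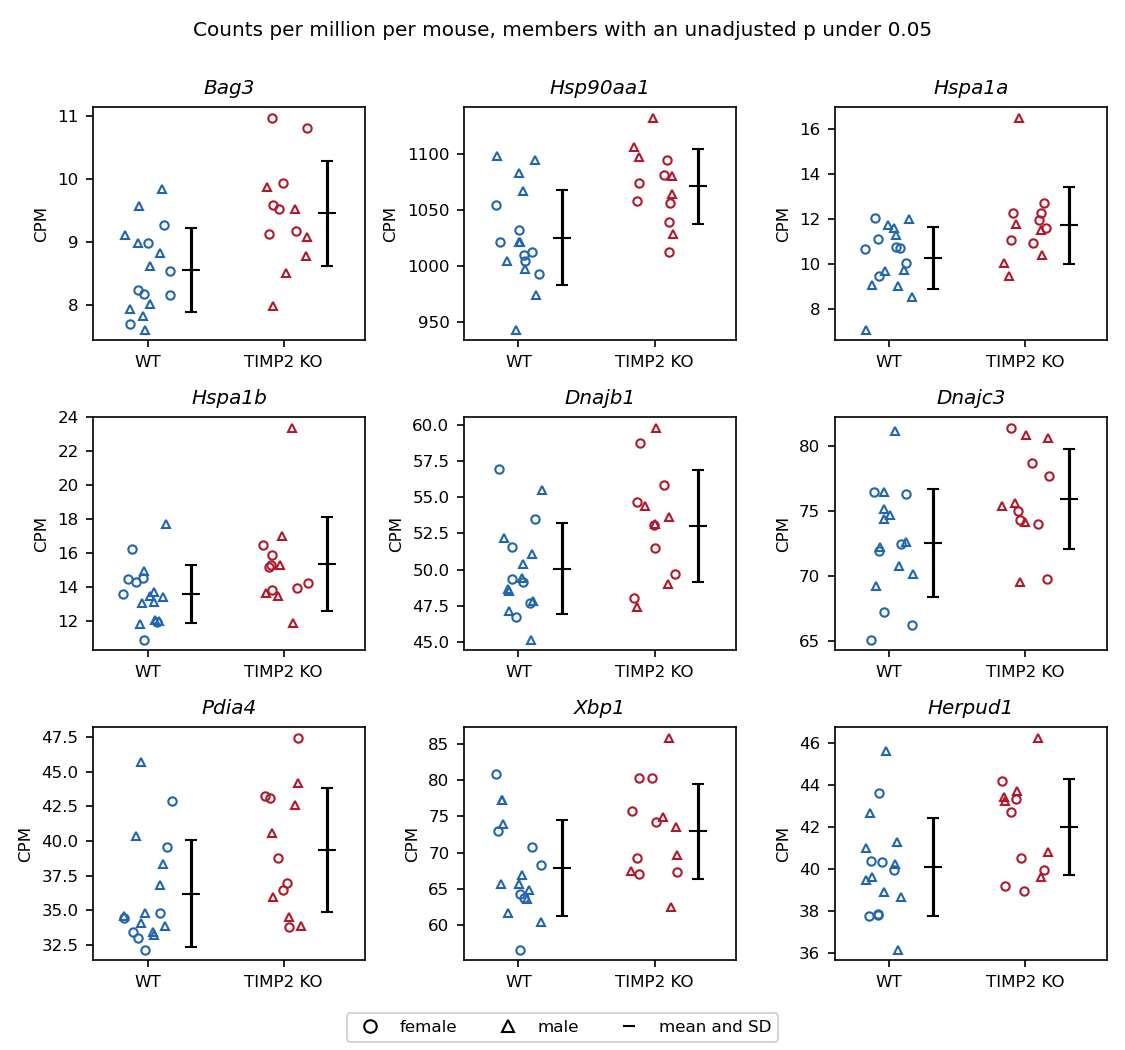
Each panel gives 1 of the 9 genes with an unadjusted p under 0.05, with CPM on the vertical axis (not from 0), 1 point per mouse (circles females, triangles males) and the mean with its SD. The groups overlap in all 9 panels, and 1 TIMP2 KO male stands above the others for Hspa1a (16.5 CPM) and Hspa1b (23.4 CPM).

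The 6 subunits of the cytosolic chaperonin TRiC, which folds actin and tubulin, and the 3 mitochondrial chaperones gave 0 calls. Log2 fold changes lay between -0.01 and 0.02 in TRiC (Tcp1, Cct2, Cct3, Cct4, Cct5, Cct8) and between 0.00 and 0.03 in the mitochondrial HSP70 Hspa9 and the HSP60 and HSP10 genes Hspd1 and Hspe1. Their standard errors were 0.02 to 0.03, against 0.07 for Hspa1a and 0.12 for Hspb1. Hspd1 and Hspe1 lie head to head on chromosome 1 and overlap over 112 exon bases on opposite strands.

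Of the 14 ER genes, 3 were higher, 0 were lower, and 13 had a log2 fold change above 0 (median 0.07). Dnajc3 (chr14:118937976-118981697), a luminal J-domain partner of BiP, ranged from 69.5 to 81.4 CPM (median 75.4) in TIMP2 KO and from 65.1 to 81.2 CPM (median 72.5) in WT mice. In TIMP2 KO mice 11 of 13 exceeded the WT median of Dnajc3, and it had a log2 fold change of 0.07 ± 0.03 (p = 0.0245) and kept a p under 0.05 with any mouse left out. Pdia4 (chr6:47796141-47813430), a disulfide isomerase, ranged from 33.8 to 47.5 CPM (median 38.8) in TIMP2 KO and from 32.2 to 45.7 CPM (median 34.6) in WT mice. Of the TIMP2 KO mice 10 were above the WT median, while WT mouse 24 was as high as the upper TIMP2 KO mice. The log2 fold change of Pdia4 was 0.12 ± 0.05 (p = 0.0286), and the call was lost with 4 of the 30 mice left out in turn (p = 0.0687 without mouse 27). Herpud1 (chr8:94386438-94395377), a membrane protein of ER-associated degradation, ranged from 38.9 to 46.2 CPM (median 42.7) in TIMP2 KO and from 36.1 to 45.6 CPM (median 40.0) in WT mice. Only 9 of 13 TIMP2 KO mice were above the WT median for Herpud1, its log2 fold change was 0.07 ± 0.03 (p = 0.0326), and the call was lost with 7 of the 30 mice left out in turn (p = 0.0762 without mouse 18).

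Hspa5, which codes for BiP, the central ER chaperone and the brake on the stress sensors, did not pass the test. Its level ranged from 228.0 to 320.8 CPM (median 252.3) in TIMP2 KO and from 202.5 to 300.3 CPM (median 243.7) in WT mice. The upper end was set by TIMP2 KO mouse 10 and the lower end by WT mouse 22, with broad overlap between them. The log2 fold change was 0.11 ± 0.06 (p = 0.0674). Manf, a secreted ER stress protein, Sdf2l1 and Creld2, both luminal partners of folding clients, had log2 fold changes of 0.11, 0.12 and 0.10 and also missed the threshold (p = 0.0654, 0.114 and 0.105). The remaining ER genes lay between -0.02 for the lectin chaperone Canx and 0.07 for the disulfide isomerase Pdia6, with Hsp90b1 (GRP94), Hyou1 (GRP170), Dnajb9, Pdia3 and Calr (calreticulin) between 0.01 and 0.03.

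Of the 4 transcription factors of the unfolded protein response, Xbp1 was higher in TIMP2 KO mice. Xbp1 (chr11:5520659-5525893) ranged from 62.5 to 85.8 CPM (median 73.5) in TIMP2 KO and from 56.7 to 80.8 CPM (median 65.7) in WT mice. Of the TIMP2 KO mice 12 exceeded the WT median. The log2 fold change of Xbp1 was 0.10 ± 0.05 (p = 0.0311), and the call was lost with 5 of the 30 mice left out in turn (p = 0.0788 without mouse 10). Xbp1 lies 112.8 Mb from Timp2 on the same chromosome, and the count covers all its transcripts, spliced by IRE1 or not. Atf4, which is mostly regulated by translation, ranged from 107.0 to 128.6 CPM (median 118.3) in TIMP2 KO and from 105.1 to 121.6 CPM (median 116.0) in WT mice, a log2 fold change of 0.05 ± 0.03 just outside the threshold (p = 0.0578). Ddit3, which codes for the pro-apoptotic factor CHOP, had 20.6 ± 1.62 against 20.0 ± 0.980 CPM (p = 0.230), and Atf6 104.7 ± 6.45 against 105.9 ± 6.21 CPM (p = 0.567). The heme-degrading stress enzyme Hmox1, a low gene with 101 to 212 counts per mouse, had 5.27 ± 0.66 against 5.34 ± 0.62 CPM (p = 0.801).

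Further genes of these pathways, outside the 50, were counted from a list of 106, of which 103 were tested. Of these 3 passed the unadjusted threshold, where 5.03% of all genes did, and the median log2 fold change was 0.01. The small heat shock protein Cryab was higher (0.12 ± 0.05, p = 0.0156), the ER lectin Erlec1 was lower (-0.06 ± 0.02, p = 0.0235) and the transcription factor Cebpg was higher (0.05 ± 0.03, p = 0.0441). After adjustment 0 passed, and with 1 mouse left out the count lay between 2 and 8, the latter without TIMP2 KO mouse 15.

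Some markers of other features moved with genotype too. Immediate early genes, which neurons switch on with activity, were higher for 10 of 12 at the unadjusted threshold (median log2 fold change 0.39). They summed to 310 to 864 CPM in TIMP2 KO and to 270 to 766 CPM in WT mice. In females alone 0 of the 12 were called (median 0.388), and in males alone 6 were (median 0.274). Between the sexes, 9 of the 12 were higher in females (median 0.342), and the pooled genotype comparison had no term for sex. Dentate granule cell markers were lower for 5 of 6 (482 to 630 CPM summed in TIMP2 KO, 522 to 770 CPM in WT). Choroid plexus markers were higher for 3 of the 4 that could be tested, with the other 5 listed too low to test. They summed to 127 to 1109 CPM (median 158.9) in TIMP2 KO and to 122 to 173 CPM (median 153.1) in WT mice. The medians were close, and the 1109 CPM came from TIMP2 KO mouse 11. TIMP2 KO mice 5, 1, 20, 15 and 18 (361.1, 269, 258.9, 191.6 and 182.5 CPM) were also above every WT mouse. The other TIMP2 KO mice lay within the WT range. Of the 4 genes, Ttr differed most, with 73.0 ± 173.4 CPM in TIMP2 KO and 6.07 ± 8.44 CPM in WT mice. Its log2 fold change was 3.67 ± 0.73 (edgeR quasi-likelihood test, adjusted p = 0.0326). The astrocyte gene Gfap was higher and the endothelial gene Slco1a4 was lower, each as 1 of 6 in its list. Pyramidal cell, pan-neuronal, oligodendrocyte, microglia, red blood cell and striatum or thalamus markers gave 0 calls. With the mean granule cell level as a covariate 4 of the 50 chaperone genes were called (4% of all genes). With the mean immediate early level 6 were (4.82%), and with sex and surrogate variables 5 were (7.07%). Of the 9 genes called without covariates, Bag3, Hsp90aa1 and Hspa1b were called under all 3 models. Hspa1a was called under the granule cell and immediate early models alone, and Dnajb1 under none. The remaining calls under the immediate early and surrogate variable models were genes outside the 9. The 4 ER stress genes that were called without covariates, Dnajc3, Pdia4, Herpud1 and Xbp1, were not called under any of these 3 covariate models or in males alone. Herpud1 and Xbp1 were not called in females alone either, nor was Herpud1 with limma voom. Whether a shift in these cells or in activity had a part in the differences was not tested beyond these covariates.

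The sexes were compared next, since both were sampled in each genotype. Of the 50 genes, Hspa2 was higher in females (74.2 ± 2.90 CPM, n = 14) than in males (70.1 ± 3.55 CPM, n = 16), with a log2 difference of 0.08 ± 0.03 (p = 0.00226, adjusted p = 0.200). Dnajb5 was lower in females by 0.08 ± 0.04 on the log2 scale (p = 0.0493). These are 2 of 50 (1 higher and 1 lower), against 9.77% of all genes tested between the sexes (5.14% higher and 4.63% lower), and 0 passed after adjustment, against 0.218%. For the interaction of sex and genotype 0 of 50 passed the unadjusted threshold, against 2.57% of all genes and 0% after adjustment, and the smallest p were 0.0582 for Hmox1 and 0.0583 for Bag3. In females alone 7 genes were called higher in TIMP2 KO (Hspa1a, Hsp90aa1, Bag3, Hspb1, Hspa5, Dnajc3 and Pdia4, where 5.02% of all genes were called), and in males alone Hsp90aa1 was (3.25% of all genes). The log2 fold change of Bag3 was 0.22 ± 0.06 in females and 0.05 ± 0.07 in males, and that of Hspa1a was 0.15 ± 0.06 and 0.22 ± 0.11. The difference between the sexes was tested only by the interaction term, which gave 0 calls in edgeR and 1, Bag3, with limma voom.

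The second question was whether these genes rise and fall together from mouse to mouse. Pearson's r was computed on log2 CPM over the 30 mice for all 1225 pairs. The median r was 0.23, and 242 pairs (19.8%) had r of at least 0.5. Over all 135885855 pairs of tested genes the median was -0.00 and 1.3% reached 0.5. After adjustment over the 1225 pairs, 303 passed a permutation test of r at 0.05, 301 of them positive and 2 negative, and 273 passed with Spearman's rho. Pairs within a role had a median r of 0.48 over 168 pairs, against 0.21 over the 1057 pairs across roles. Of the 168, 91 were pairs of ER genes, and the roles differed. The median was 0.65 in TRiC, 0.56 in the ER genes and 0.415 in HSP90 and its co-chaperones. It was 0.26 in HSP70 and HSP110, 0.22 in J-domain and BAG genes, 0.22 in the transcription factors and 0.15 in the mitochondrial chaperones. The 1 pair of small heat shock proteins had 0.38. The number of pairs at 0.5 or more was 297 in TIMP2 KO mice alone, 252 in WT mice alone and 242 after removal of sex and genotype.

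**Figure D3:**
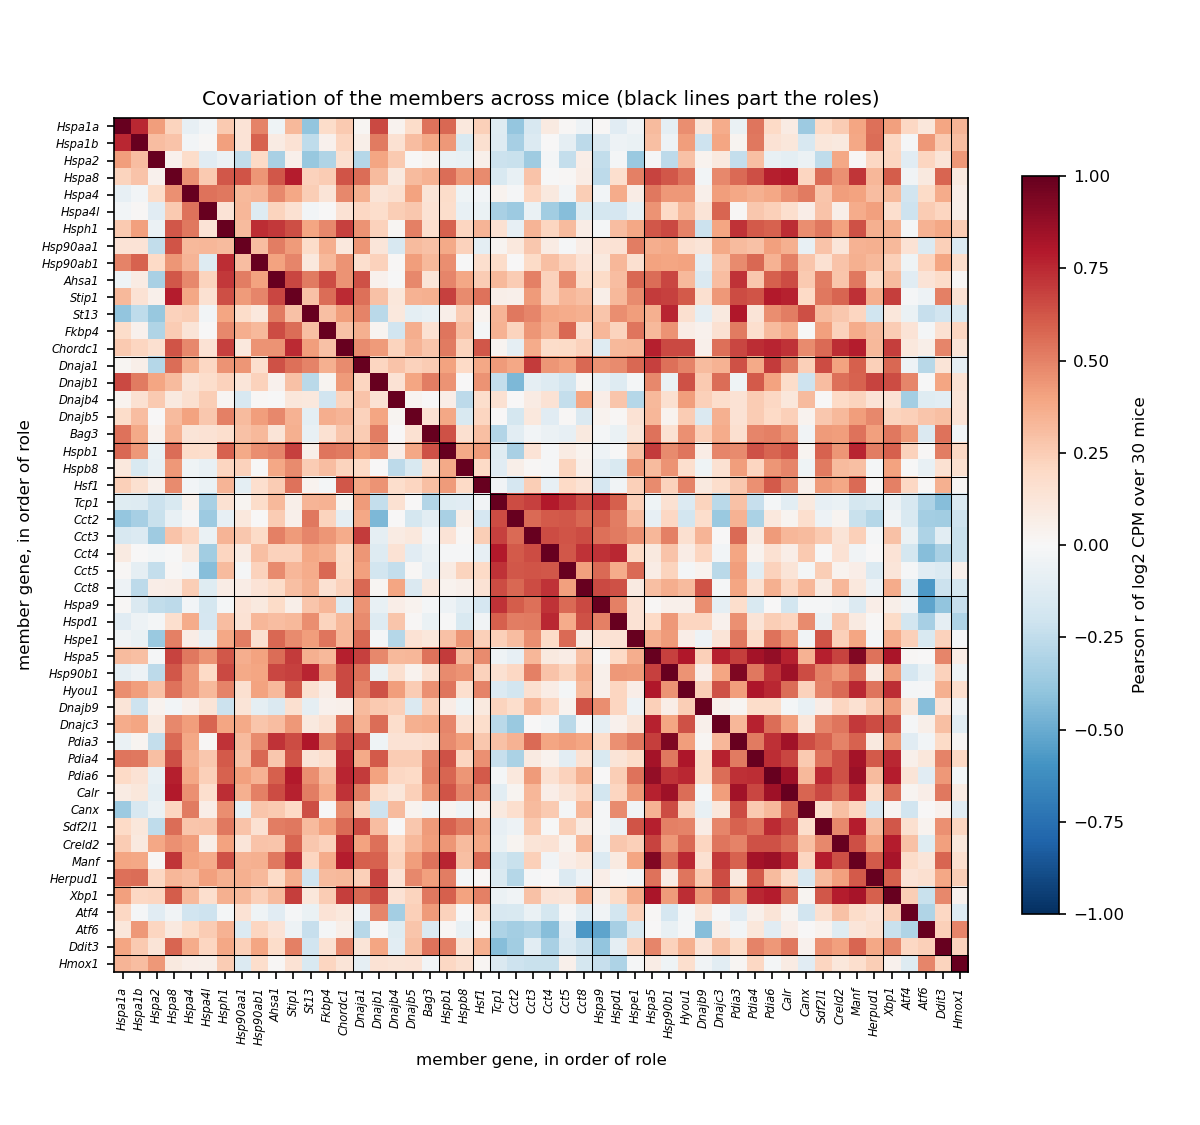
Both axes list the 50 genes in order of role, and the colour of each square is Pearson's r of log2 CPM over 30 mice, from -1 (blue) to 1 (red). Red blocks stand at the TRiC subunits (median r 0.65) and at the ER genes (median r 0.56), and the row of Atf6 is mostly pale or blue.

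The ER genes formed the larger block. Among their 91 pairs the median r was 0.56, and 53 pairs (58.2%) reached 0.5, with a median of 0.55 in TIMP2 KO and 0.54 in WT mice alone. The closest pair was Hsp90b1 and Pdia3 (r = 0.93, rho = 0.917, both with a permutation p of 1e-05, the smallest that the permutations can give, adjusted p = 0.000266). Without the 2 mice farthest from the median of Hsp90b1, mice 9 and 22, r was 0.892. Hspa5 and Manf were nearly as close (r = 0.926, rho = 0.953, and 0.904 without mice 10 and 27), with r of 0.951 in TIMP2 KO and 0.9 in WT mice. Further pairs of this block were Hspa5 with Pdia6 (0.876), Hspa5 with Pdia4 (0.831), Pdia6 with Manf (0.853), Pdia4 with Manf (0.83), Hsp90b1 with Calr (0.848), Pdia6 with Calr (0.848) and Pdia3 with Calr (0.839), all with the same adjusted p. WT mouse 22 was among the 3 lowest mice for 10 of the 14 ER genes, and TIMP2 KO mouse 27 was among the 3 highest for 10 of 14. Dnajb9 stood outside the block, with 2 positive partners among the other 49 genes, but its counting error was 0.71 times its spread between mice. Canx was partly outside, with a median r of 0.26 to the other 13 ER genes, of which 3 passed and reached 0.5, among them Calr (r = 0.582, rho = 0.628, adjusted p = 0.006, and 0.438 without mice 22 and 27).

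Transcription factors differed in how they followed the ER genes. Xbp1 had a median r of 0.63 with the 14, and its closest partner was Manf (r = 0.823, rho = 0.787, and 0.768 without mice 10 and 27, adjusted p = 0.000266). Ddit3 had a median r of 0.40 with them, Atf4 of 0.04 and Atf6 of 0.00. Between Hspa5 and Atf4 r was 0.012, and between Hspa5 and Atf6 it was 0.001 (adjusted p = 0.980 and 0.997). Of all 16486 genes tested, those nearest to Hspa5 were Manf, Pdia6, Pdia4, Mlec (r = 0.826), which codes for an ER lectin, and Xbp1 (r = 0.814), and 16 of its 50 nearest genes were among the 50 described here.

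Promoters of the ER genes were read from RefSeq windows of GRCm38.p6, of which the 250 bases before each start were searched on both strands. Windows were found for 39 of the 50 genes. The ER stress response element (ERSE), CCAAT and CCACG parted by 9 bases of any kind, to which the factor NF-Y and ATF6 or XBP1 bind together, was spelled out in 7 of the 39, all of them among the 12 ER genes with a window, and in 0.13% of all 27025 genes. The stretches are shown because they hold the element that these 7 genes share, in capitals, and for Herpud1 its shorter form. Dnajb9, Pdia3, Pdia4 and Sdf2l1 had a window and neither form. Hsp90b1 held a second match, 212 to 194 bases before the start, that is not shown. An element on the other strand reads CGTGG first and ATTGG last, and each stretch is on the strand of its gene.
Hspa5 (chr2:34772020-34772048): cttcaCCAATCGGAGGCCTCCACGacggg
Hsp90b1 (chr10:86705528-86705556): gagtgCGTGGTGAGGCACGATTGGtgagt
Pdia6 (chr12:17266486-17266514): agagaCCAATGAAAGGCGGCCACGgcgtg
Calr (chr8:84847070-84847098): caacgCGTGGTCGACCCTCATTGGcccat
Creld2 (chr15:88819515-88819543): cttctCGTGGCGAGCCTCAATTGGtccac
Dnajc3 (chr14:118937822-118937850): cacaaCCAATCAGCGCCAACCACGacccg
Canx (chr11:50325795-50325823): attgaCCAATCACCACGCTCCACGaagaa
Herpud1, with the shorter ERSE-II in capitals (chr8:94386368-94386396): cgggcgctgATTGGGCCACGttggacact

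The Hspa5 stretch lies within the span that GENCODE release M21 gives the gene, and the other 7 lie outside the span of their gene, before its start. ERSE-II, ATTGG and CCACG parted by 1 base, was found in Herpud1 alone of the 39 and in 0.037% of all genes. The window of Herpud1 also held TGATGCAA, the ATF4 part of a composite element (0.918% of all genes). Among the 7 genes with the ER stress response element the median r over 21 pairs was 0.58 (from 0.12 to 0.88), with Canx in the low pairs. Among the 5 other ER genes with a window it was 0.29 over 10 pairs (from 0.02 to 0.61). Close pairs also joined a gene with the element to one without, such as Hsp90b1 with Pdia3 (r = 0.93) and Hspa5 with Pdia4 (0.831). Counting error was 0.71 and 0.57 times the spread between mice for Dnajb9 and Herpud1 of the 5, and 0.58 times for Creld2 of the 7. Whether the element had a part in the covariation was not tested. Of the 7 genes with the element, Dnajc3 was called higher in TIMP2 KO mice. TGACGTGG, the unfolded protein response element, was in 0 of the 39 windows and in 0.603% of all genes, and the cAMP response element TGACGTCA was in 0 and in 1.77%. A match gives the letters in this window and does not show that a factor was bound.

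A heat shock element of 3 units, GAA and TTC in turn and each parted by 2 bases, was spelled out in 2 of the 39 windows, those of Hspd1 and Hspe1 (0.514% of all genes). It is the same stretch for this divergent pair, read from either side, and lies within the span of Hspd1. It is shown on the strand of Hspe1 as an example of such an element, with the stretch covered by matches in capitals, in which 4 units stand in a row and give 2 overlapping matches.
Hspe1 (chr1:55088054-55088081): gtccgTTCTAGAACCTTCCGGAAggccc

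Hspd1 and Hspe1 shared this stretch, and their levels did not covary detectably over the mice (r = 0.147, rho = 0.171, adjusted p = 0.624). Both varied little between mice beyond counting error (3.77% and 4.11%), and that error was 0.36 and 0.61 times as large, so covariation could have been missed. The 2-unit form, GAANNTTC or TTCNNGAA, which every 3-unit match also holds, was in 11 of 39 windows (28.2%), against 14.5% of all genes. The 11 were Hspa1a, Hspa1b, Hsph1, Fkbp4, Dnaja1, Dnajb4, Hspb1, Cct2, Cct5, Hspd1 and Hspe1, and 2 of them, Hspa1a and Hspa1b, were called higher in TIMP2 KO mice.

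By the median of Pearson's r the listed TRiC subunits were a tighter block than the 14 ER genes. By Spearman's rho the medians were nearly equal, 0.545 in TRiC and 0.544 in the ER genes. Of the 15 TRiC pairs 14 reached r of 0.5, and the median r was 0.65. The range was 0.41 for Cct5 with Cct8 to 0.79 for Tcp1 with Cct4. Without the 2 mice farthest from the median of the first gene of each pair, 10 of 15 reached 0.5, with mice that stood apart in the second gene kept. WT mouse 6 was among the 3 highest mice for all 6 listed subunits, and TIMP2 KO mouse 18 was among the 3 lowest for 4 of them. With the mitochondrial chaperones the median r was 0.56 over 18 pairs, with the ER genes 0.10 over 84 pairs, and with HSP70 and HSP110 genes -0.06 over 42 pairs. Of the 84 pairs with ER genes 3 reached 0.5.

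**Figure D4:**
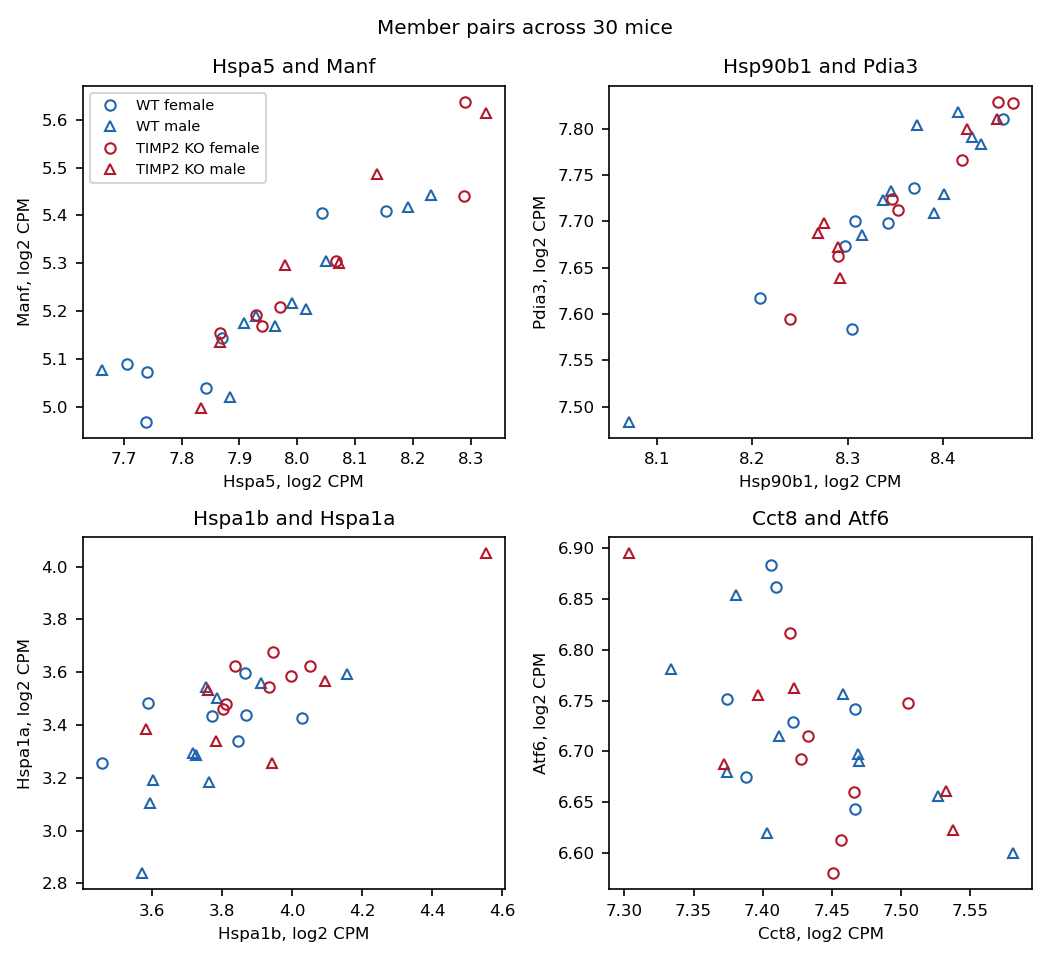
Each panel plots log2 CPM of 1 gene against another over 30 mice, with WT in blue, TIMP2 KO in red, females as circles and males as triangles. Hspa5 with Manf (r = 0.926) and Hsp90b1 with Pdia3 (r = 0.93) form narrow lines that hold both genotypes, Hspa1b with Hspa1a (r = 0.752) is stretched by 1 TIMP2 KO male, and Cct8 with Atf6 falls (r = -0.576).

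Inducible cytosolic genes covaried less evenly with each other. The cytosolic roles other than TRiC also covaried with the 14 ER genes. The median r with them was 0.36 for HSP70 and HSP110 genes and 0.37 for HSP90 and its co-chaperones (98 pairs each). It was 0.325 for J-domain and BAG genes (70 pairs), 0.45 for small heat shock proteins (28 pairs) and 0.40 for Hsf1 (14 pairs). Hspa1a and Hspa1b had r of 0.752 (rho = 0.691, adjusted p = 0.000266), and 0.612 without mice 18 and 31. Hspa1a and Dnajb1 had r of 0.658 (rho = 0.557, adjusted p = 0.00107), and 0.479 without the same mice. Hspa1a with Bag3 reached 0.541 (adjusted p = 0.0131), and 0.379 after removal of sex and genotype. Hspa1a with Hsf1 had r of 0.241 (adjusted p = 0.383). Over their 96 pairs with the other 48 genes, the median r of Hspa1a and Hspa1b was 0.14. The genes nearest to Hspa1b over all genes tested were Hspa1a, 2700081O15Rik (r = 0.747), Tmem104 (0.744), Khsrp (0.72) and Rps6kl1 (0.719), and 1 of its 50 nearest was among the 50 described here.

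Hspa8, in contrast to the inducible pair, had 23 positive partners among the 50. Its nearest genes over all tested were Calr (r = 0.792), Rab5if (0.788), Stip1 (0.785), Pdia6 (0.774) and Snrpa (0.773). Hspa8 with Calr had rho of 0.816 and r of 0.798 without mice 6 and 22, and Hspa8 with Stip1 had rho of 0.745 and r of 0.748 without them (adjusted p = 0.000266 for each). The most connected genes were Hspa5, Pdia4 and Calr with 24 positive partners each, and Hspa2 and Dnajb4 had 0. The cytosolic HSP90 genes Hsp90aa1 and Hsp90ab1 did not covary detectably with each other (r = 0.305, rho = 0.335, adjusted p = 0.226).

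Negative pairs were rare. The 2 that passed were Cct8 with Atf6 (r = -0.576, rho = -0.505, adjusted p = 0.0069, and -0.43 without mice 6 and 18) and Hspa9 with Atf6 (r = -0.528, rho = -0.519, adjusted p = 0.0148, and -0.432 without mice 6 and 27). The next lowest were Dnajb1 with Cct2 (-0.446, adjusted p = 0.0542), Dnajb9 with Atf6 (-0.429, adjusted p = 0.0681) and Tcp1 with Ddit3 (-0.425, adjusted p = 0.0769). The pairs Dnajb1 with Cct2 and Tcp1 with Ddit3 rest on a few mice, with r of -0.2 without mice 18 and 27 and of -0.145 without mice 1 and 6.

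Each gene was also set against the depth of its library and against 11 marker means, with adjustment over the 50 genes for each measure. With log2 total counts 0 of 50 passed. With the mean immediate early level, Atf4 (r = 0.588, rho = 0.56, adjusted p = 0.04) and Dnajb1 (r = 0.548, rho = 0.539, adjusted p = 0.045) passed. Atf4 kept r of 0.602 without mice 25 and 30, of 0.621 in TIMP2 KO and 0.448 in WT mice, and of 0.514 after removal of sex and genotype, and Dnajb1 kept 0.526, 0.523, 0.42 and 0.457. The genes nearest to Atf4 were Med31 (r = 0.703), Chchd7 (0.697), Hmgn1 (0.669) and the growth arrest genes Gadd45g (0.668) and Gadd45b (0.656), and 0 of its 50 nearest were among the 50 described here.

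Atf6 followed neuronal markers. With the granule cell mean r was 0.575 (rho = 0.455, adjusted p = 0.0345, and 0.462 without mice 5 and 16). Within the groups r was 0.249 in TIMP2 KO and 0.855 in WT mice, a difference that was not tested. With the pan-neuronal mean r was 0.576 (rho = 0.612, adjusted p = 0.045, and 0.568 without mice 6 and 23). Hspa9 fell with the astrocyte mean (r = -0.631, rho = -0.624, adjusted p = 0.008, and -0.586 without mice 10 and 32). With choroid plexus, pyramidal cell, oligodendrocyte, microglia, endothelial, red blood cell and striatum or thalamus means 0 of 50 passed.

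The spread between mice differed from gene to gene. The biological coefficient of variation (the part of the spread beyond counting error, as edgeR estimates it per gene) had a median of 5.3% over the 50, against 6.97% over all genes tested. It was lowest for St13 (3.44%), Dnajb9 (3.75%) and Hspd1 (3.77%). St13 ranged from 182.9 to 196.0 CPM in TIMP2 KO and from 175.2 to 199.9 CPM in WT mice, Dnajb9 from 49.2 to 53.7 CPM and from 47.9 to 55.3 CPM, and Hspd1 from 184.4 to 204.2 CPM and from 180.2 to 205.5 CPM. At the other end stood Hspb1 (21.1%), Hspa1b (12.8%) and Sdf2l1 (12.6%), with a highest mouse 3.12, 2.15 and 1.68 times the lowest. Sdf2l1 ranged from 7.44 to 12.5 CPM (median 10.2) in TIMP2 KO and from 8.11 to 12.5 CPM (median 9.52) in WT mice. Hspa5, with 10.9%, was more variable than 95.5% of all genes relative to the trend at its level, and 7 of the 50 were above the 90th percentile on that scale, while 3 were under the 10th.

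**Figure D5:**
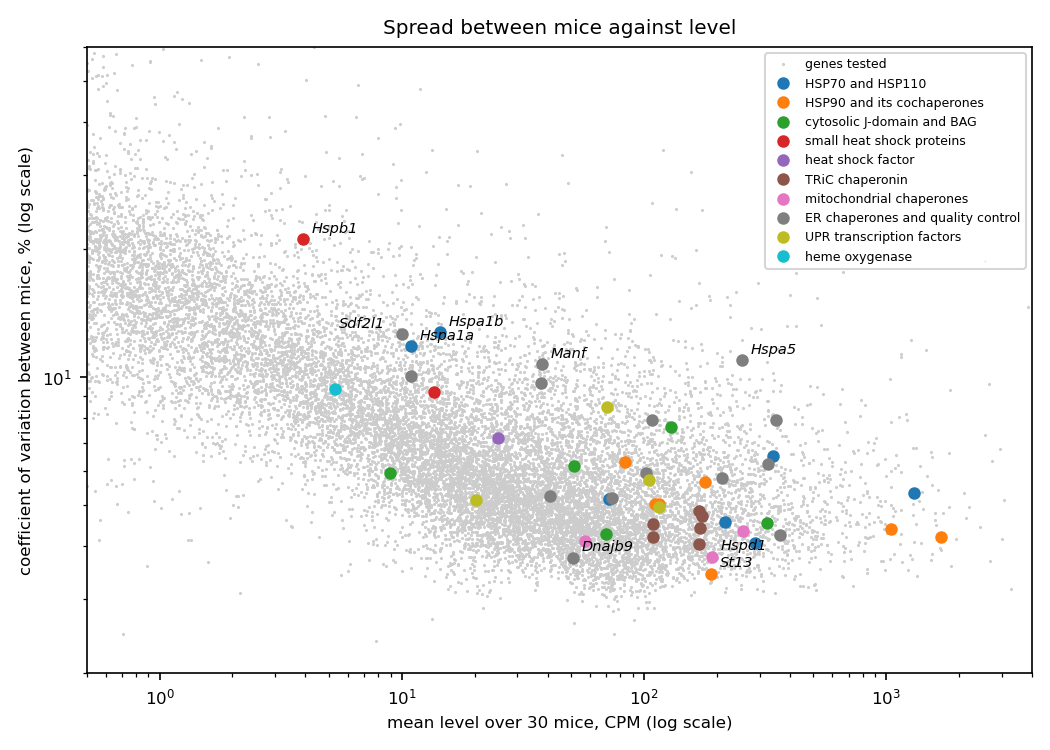
The horizontal axis is the mean level over 30 mice in CPM (log scale) and the vertical axis the biological coefficient of variation in percent (log scale), with the 50 genes in colour by role and the other genes tested in grey (genes under 0.5 CPM or outside 2% to 60% are not drawn). Hspb1 (21.1%), Hspa1b (12.8%) and Hspa5 (10.9%) lie above most genes of their level, and St13 (3.44%) and Hspd1 (3.77%) at the lower edge.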

How the data were processed

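The 50 genes, their roles and the further gene lists were chosen with earlier results of these data known. Hippocampal RNA of high integrity was poly(A)-selected and sequenced as paired-end reads. Per the submitters' processing notes, the authors trimmed with Trimmomatic 0.36, aligned to GRCm38 with STAR 2.5.2b and counted with featureCounts of Subread 1.5.2, and they deposited raw counts per gene and mouse, without normalization. The strand setting and annotation release are not given in the sources used here. All 30 columns were matched to a mouse by name. Symbols and positions come from GENCODE release M21, and 259 identifiers had no entry.

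Counts were scaled by TMM, filtered with filterByExpr and compared by the quasi-likelihood test of edgeR 4.0.16 in R 4.3.3, with both sexes pooled and no covariate. Adjustment was by Benjamini and Hochberg's method over the 16486 genes kept. CPM values are TMM-scaled, log2 CPM used a prior count of 2, and CPM per kb used the summed exon length. Library totals were 18345517 to 41081083 counts per mouse. Counting error at a gene's median count was 1.82% at the median of the 50 genes, and for 10 genes it was over 0.5 times the biological coefficient of variation, with Bag3 (1.09 times), Hmox1 (0.9) and Ddit3 (0.82) the highest. Correlations were tested 2-sided with 100000 permutations in scipy 1.17.1. The tests were tried on simulated data. Values are given in full for genes past the unadjusted threshold, 11 anchor genes, the 3 most and 3 least variable genes, and the 10 highest and 5 lowest pairs.

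Alternatives were DESeq2 1.42.0, RLE size factors, sex, total counts, no filter on low counts, a minimum of 10 counts per mouse, sex with surrogate variables (sva 3.50.0), each sex alone, limma 3.58.1 voom with sample weights, and each mouse left out. The immediate early and granule cell means as covariates were added after the data were seen. The harvest date, a batch named in the study's supplement, is not in the labels and was not fitted.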

Additional observations from a re-analysis of the deposited data

Results flagged for a closer look

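Within each genotype and sex, a mouse that stood apart was looked for in every gene by Dixon's test. Of 200 groups of values 13 had such a mouse, where chance alone gives about 1 in 20, that is 10. The values are log2 CPM.

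WT male mouse 6 was the highest of 10 for Tcp1 (7.60, others 7.33 to 7.45), Cct4 (6.97, others 6.65 to 6.79) and Hspa9 (8.17, others 7.93 to 8.05), and the lowest for Ddit3 (4.12, others 4.29 to 4.38). WT male mouse 22 was the lowest of 10 for Dnaja1 (8.19, others 8.29 to 8.40), Hsp90b1 (8.07, others 8.31 to 8.44) and Pdia3 (7.48, others 7.68 to 7.82). TIMP2 KO female mouse 27 was the lowest of 7 for Cct2 (7.31, others 7.40 to 7.45) and Hspa9 (7.90, others 7.98 to 8.04). Among WT females, Tcp1 was lowest in mouse 23 (7.33, others 7.39 to 7.43) and Hyou1 was highest in mouse 28 (6.85, others 6.62 to 6.65). Among TIMP2 KO males, Fkbp4 was lowest in mouse 15 (6.68, others 6.91 to 6.97) and Dnaja1 was highest in mouse 10 (8.52, others 8.30 to 8.37).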

How the results depend on the processing

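Of the 50 genes, 9 had an unadjusted p under 0.05 between the genotypes. The count was 5 with sex and surrogate variables, 1 in males alone and 4 with the mean granule cell level as a covariate, and the cause was not tested. Of the 9, only Bag3, Hsp90aa1 and Hspa1b were among the 5 called with surrogate variables. With 1 mouse left out at a time the count ran from 5 (without TIMP2 KO mouse 18) to 14 (without TIMP2 KO mouse 15). Single omissions ended the call of Herpud1 in 7 cases of 30, of Xbp1 in 5, of Pdia4 in 4, and of Hspa1b and Dnajb1 in 1 each. Hsp90aa1 was called in all 12 other settings, Bag3 in 11 (not in males alone), Hspa1a and Hspa1b in 10, Dnajc3 and Pdia4 in 8, Xbp1 in 7, and Dnajb1 and Herpud1 in 6. The count of genes past an adjusted p was 0 in each setting tried. With limma voom 1 of 50 was called between the sexes and 1 (Bag3) for the interaction. The other pathway genes gave 5 calls with no filter and 5 with limma voom, and with 1 mouse left out 2 to 8, the highest without TIMP2 KO mouse 15. Of the 41 uncalled genes, 15 took both signs with 1 mouse left out, all between -0.044 and 0.037 on the log2 scale, and 20 had opposite signs in females and males. The 9 called genes kept their sign. Of the genes recomputed in every setting, Hsf1 was at 0.014 in males alone and between -0.026 and 0.014 with 1 mouse left out, and Hmox1 was at 0.096 in males alone, at 0.056 with the granule cell covariate and between -0.044 and 0.006 with 1 mouse left out. The number of pairs with r of at least 0.5 stayed between 218 and 297 in the alternatives run. Littermates served as controls, but the labels used here name no litter, and the mice carry unique numbers, shared by no other mouse. No paired analysis was therefore possible, and litter was not fitted in the comparisons or the correlations.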
